A study of Mus musculus with 12 samples.

Results

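The immediate early genes are the genes that neurons transcribe within minutes of being activated, before any new protein is needed. They were followed here as 35 genes, picked by symbol from the count table of the study: 7 AP-1 factors, 6 zinc finger factors, 5 nuclear receptors and PAS domain factors, 7 synaptic and secreted effectors and 10 genes of signalling feedback. All 35 symbols were found among the 24062 in the table, and all 35 were among the 15440 genes that had enough reads to be tested. The table holds RNA of the cortex of 9-month-old mice in 4 groups, with 3 mice and 3 libraries in each. WT mice carried neither change. Tia1+/- mice had a null allele of Tia1, an RNA-binding protein of stress granules, on 1 chromosome. PS19 mice carried a human tau transgene with the P301S mutation, driven by the mouse prion protein promoter and therefore not limited to the cortex, with both Tia1 alleles intact. P301S Tia1+/- mice carried both the transgene and the Tia1 null allele, and came from the same crosses. Mice with end-stage or neuromuscular symptoms were left out by the study, so the groups, among them both with the transgene, stand for mice without such symptoms.

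When a neuron fires, calcium enters through NMDA receptors and voltage-gated channels and activates CaM kinases and the MAP kinase cascade, which act on factors already bound at the promoters, CREB at the cyclic AMP response element (CRE) and SRF at the CArG box. The first transcripts to appear encode transcription factors such as Fos, Egr1 and Npas4, proteins that act at the synapse such as Arc and the short form of Homer1, and phosphatases that switch the kinases off again. Their levels in a dissected brain follow what the animal experienced shortly before death, including handling, as well as its genotype. The handling of these mice before dissection is not given in the sources used here, and its part in the values was not tested.

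Promoters are shown for 4 of the genes, because the CRE is the sequence through which calcium signals reach them and because 3 of the 4, Fosb, Homer1 and Bdnf, passed a test below, while Fos is the reference gene of the class. RefSeq promoters on GRCm38.p6 were matched for 26 of the 35 genes, with 40 start sites between them. Each printed sequence is read 5′ to 3′ on the strand of its gene, ends at the base before the start site or before the first exonic base of the annotation, and has each core of the CRE, TGACG or its complement CGTCA, in capitals.
Fos, chr12:85473640-85473889, plus strand: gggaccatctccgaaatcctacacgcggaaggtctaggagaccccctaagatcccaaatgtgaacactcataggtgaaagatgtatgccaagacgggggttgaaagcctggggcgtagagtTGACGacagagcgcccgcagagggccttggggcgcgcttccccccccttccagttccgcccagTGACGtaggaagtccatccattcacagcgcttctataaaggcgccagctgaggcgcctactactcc
Fosb, chr7:19310052-19310295, minus strand: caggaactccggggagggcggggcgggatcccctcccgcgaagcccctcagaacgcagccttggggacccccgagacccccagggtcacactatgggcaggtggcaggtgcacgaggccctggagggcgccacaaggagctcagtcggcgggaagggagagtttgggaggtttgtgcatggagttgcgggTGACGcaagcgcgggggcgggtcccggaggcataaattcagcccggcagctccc
Homer1, chr13:93303507-93303756, plus strand: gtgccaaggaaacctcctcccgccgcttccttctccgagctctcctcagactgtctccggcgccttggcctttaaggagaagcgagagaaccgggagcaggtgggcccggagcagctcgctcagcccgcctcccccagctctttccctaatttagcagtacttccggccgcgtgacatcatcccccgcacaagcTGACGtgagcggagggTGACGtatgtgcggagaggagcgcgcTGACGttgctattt
Bdnf, chr2:109692186-109692435, plus strand: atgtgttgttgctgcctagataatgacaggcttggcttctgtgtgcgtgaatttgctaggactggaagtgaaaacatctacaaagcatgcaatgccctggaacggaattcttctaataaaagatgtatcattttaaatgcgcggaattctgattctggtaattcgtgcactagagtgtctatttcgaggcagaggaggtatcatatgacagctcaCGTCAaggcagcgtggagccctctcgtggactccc

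The CRE core lay 66 and 129 bases before the start of Fos, 60 bases before that of Fosb, 56, 40 and 14 bases before that of Homer1 and 35 bases before the third of 7 Bdnf starts. The Homer1 window lies in an intron of the longer transcript that the GENCODE annotation gives for the gene. Over all 40 start sites of the 26 genes, 22 had the core within 250 bases, which is 55.0% against 17.8% of 32851 mouse promoters of the same length searched on both strands. The 8-letter element TGACGTCA, which contains the core on both strands, was found at 3 of the 40 (7.5%), those of Maff, Dusp1 and Btg2, against 1.55% of all promoters. The CArG box was found at 5 of the 40 (12.5%), which belong to Egr2 and Dusp5, against 1.47%. Starts 3, 4 and 5 of Egr2 have overlapping windows that share their CArG box and CRE cores, so these were counted more than once. By gene, the core was found for 18 of the 26 and the CArG box for 2, with no share of all genes to set beside them. The AP-1 element TGANTCA was found at 1, a Bdnf start, or 2.5% against 6.75%. These matches describe letters, and no binding was measured.

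The libraries held between 11978962 and 19146484 counts, and the lowest raw count of a member in any of them was 14, for Maff, followed by 24, for Klf4. Levels are given as CPM, the counts of a gene relative to a library size that was scaled with edgeR's TMM method. Tia1 itself was at 75.3 to 93.7 CPM in WT, 70.7 to 77.9 CPM in PS19, 61.4 to 79.8 CPM in Tia1+/- and 72.6 to 77.7 CPM with both changes. These ranges overlap, so the targeted gene does not separate the libraries. The titles of the libraries and their genotype entries disagree, with Tia1+/- and P301S Tia1+/- exchanged in the entries. Mapt, the tau gene of the mouse, was at 256, 368 and 413 CPM in WT, at 439, 462 and 457 CPM in PS19, at 501, 455 and 344 CPM in the libraries titled Tia1+/- and at 336, 357 and 353 CPM in those titled P301S Tia1+/-. The group titled as transgenic was thus not above the one titled Tia1+/- (log2 fold change −0.31 ± 0.17, unadjusted p = 0.0897, edgeR), which goes against the titles if reads of the human transgene were counted in this gene, and whether they were is not given in the sources used here. PS19 did not pass above WT in Mapt either (log2 fold change 0.39 ± 0.17, adjusted p = 0.291, edgeR), so this gene does not settle the titles. The titles were followed, and all group names below are those of the titles. If the entries were right, the comparisons of these 2 groups with WT and with PS19 would change places. The comparison between the 2 would change sign, and the interaction would be another contrast, which was not computed. Xist was at 217 to 367 CPM in the libraries of both Tia1+/- groups and at 0.783 CPM or less in WT and PS19, while Ddx3y, a Y-linked gene, was at 119 to 169 CPM in WT and PS19 and at 0.119 CPM or less in the others, so that Tia1 genotype and sex cannot be told apart in any comparison across them, although the methods of the study name males unless noted. Markers of olfactory bulb, such as Omp and Th, summed to 1115 CPM in WT replicate 1 and to 699.6 to 840.3 CPM in the 3 P301S Tia1+/- libraries, against 7.11 to 161 CPM in the other 8. Markers of striatum summed to 1886 CPM in Tia1+/- replicate 3 and to 134 to 346 CPM elsewhere. These cortex libraries therefore differ in the neighbouring tissue they hold, and the values that bear on it are given beside the results. In bulk tissue, fewer cells of a type and less RNA per cell cannot be told apart.

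**Figure D1:**
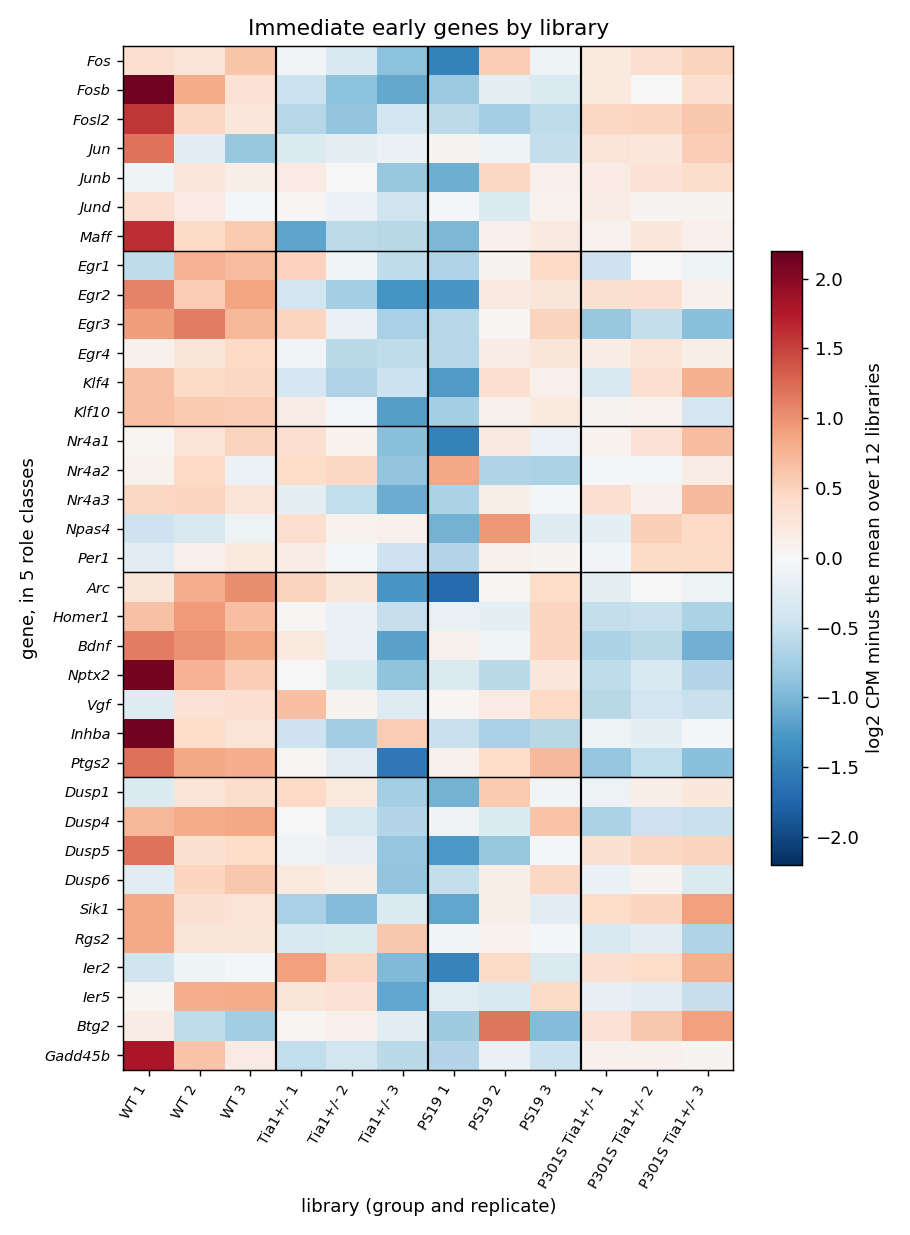
Colour map of the 35 genes (vertical axis, in their 5 role classes) in the 12 libraries (horizontal axis); colour is the log2 CPM of a gene minus its mean over the 12 libraries. The WT columns are mostly red, with medians of 0.40 to 0.62, and Tia1+/- replicate 3 and PS19 replicate 1 are mostly blue, with medians of −0.70 and −0.65.

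The WT libraries held the highest levels of the immediate early genes. WT had the highest group mean for 25 of the 35 genes (71.4%), against 26.1% of all genes tested, P301S Tia1+/- for 9, PS19 for 1 and Tia1+/- for none. On the log2 CPM scale, as a difference from each gene's mean over the 12 libraries, the median of the 35 genes was 0.62, 0.41 and 0.40 in WT replicates 1 to 3. For PS19 it was −0.65, 0.09 and 0.08, for Tia1+/- 0.03, −0.15 and −0.70, and for P301S Tia1+/- −0.03, 0.09 and 0.10. The median over all genes stayed between −0.01 and 0.02 in every library. Single animals stood apart from their group: Tia1+/- replicate 3 was the lowest of its group for 26 of the 35 genes (74.3%, against 41.5% of all genes), and PS19 replicate 1 for 24 (68.6%, against 32.7%).

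The genes also varied more between mice of 1 genotype than most transcripts. The SD of log2 CPM within groups had a median of 0.48 over the 35 genes and of 0.21 over all genes tested, and 34 of the 35 were above the latter. Jund, the AP-1 subunit that is made without stimulation, varied least, with an SD of 0.19, and Homer1 was next at 0.25. Arc varied most, with an SD of 0.77, followed by Ier2 at 0.68 and Btg2 at 0.66. Per kilobase of exon, the highest mean level over the 12 libraries was that of Arc at 99.7 CPM per kb, and Jund and Junb followed at 52.4 and 37.5 CPM per kb.

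Each pair of genotypes was compared gene by gene by the quasi-likelihood F test of edgeR, fitted to the 12 libraries at once, with p values adjusted over the 15440 genes by the Benjamini-Hochberg method and a threshold of 0.05. In Tia1+/- compared to WT, 2 of the 35 genes passed, Fosb and Fosl2, both lower, against 0.712% of all genes. Compared to WT, 5 passed in P301S Tia1+/-, Homer1, Bdnf, Dusp4, Egr3 and Ptgs2, all of them lower, against 1.31% of all genes. None of the 35 passed in PS19 compared to WT, where 0% of all genes did. In the test of any difference among the 4 groups 1 gene passed, Homer1, against 0.395% of all genes.

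The direction was shared far more widely than the calls. Compared to WT, 32 of the 35 genes were lower in PS19 (51% of all genes), 31 in Tia1+/- (49.3%) and 26 in P301S Tia1+/- (46.6%), and the median log2 fold changes were −0.60, −0.82 and −0.45 against −0.01, 0.01 and 0.02 over all genes. These 3 comparisons use the same 3 WT libraries. Oligodendrocyte and microglia markers went the opposite way, higher than in WT, and astrocyte markers shared no direction. All 5 oligodendrocyte markers were higher than in WT in each group, with median log2 fold changes of 0.65 in PS19, 0.86 in Tia1+/- and 0.37 in P301S Tia1+/-. Of these, 3, 5 and 0 were under an unadjusted p of 0.05. All 5 microglia markers were higher too, with medians of 0.50, 0.19 and 0.29 and 4, 0 and 0 under that p. Of the 5 astrocyte markers 2, 1 and 3 were higher, with medians of −0.05, −0.27 and 0.12, and none was under that p. Among them Gfap, named after its values were seen, was highest in PS19 replicate 1, at 568 CPM. WT replicate 1 came next in Gfap, at 249 CPM. The 5 excitatory neuron markers had medians of 0.29, 0.06 and −0.28, and none was under it either. The part of any of these cell types in the lower levels was not tested. At an unadjusted p under 0.05, 14 genes were lower and none higher in PS19 (16.3% of all genes in either direction), 19 and none in Tia1+/- (19.1%) and 13 and none in P301S Tia1+/- (18%). DESeq2's Wald test called 7, 14 and 7 genes in these comparisons, where it called 2.89%, 6.74% and 7.5% of all genes. In the test among all 4 groups 17 genes were under the unadjusted threshold, against 22.2% of all genes, and DESeq2 called 15 (12.5% of all genes).

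Whether the ranges of the groups met was counted as well. Every PS19 library was below every WT library for 18 of the 35 genes, against 11% of all genes, and none was above (9.75%). Every Tia1+/- library was below WT for 18 (10.4%) and above for 1, Npas4 (9.6%). Every P301S Tia1+/- library was below WT for 15 (10.8%) and above for 2, Ier2 and Btg2 (12.4%). For 16 genes, or 45.7% against 5.64% of all genes, both PS19 and Tia1+/- lay wholly below WT: Fosb, Fosl2, Maff, Egr2, Egr3, Klf4, Klf10, Nr4a3, Homer1, Bdnf, Nptx2, Ptgs2, Dusp4, Dusp5, Sik1 and Gadd45b. For 10 of these, or 28.6% against 3.34%, all 3 other groups lay below WT, and the 6 whose P301S Tia1+/- libraries reached the WT range were Fosb, Fosl2, Klf4, Nr4a3, Dusp5 and Sik1.

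**Figure D2:**
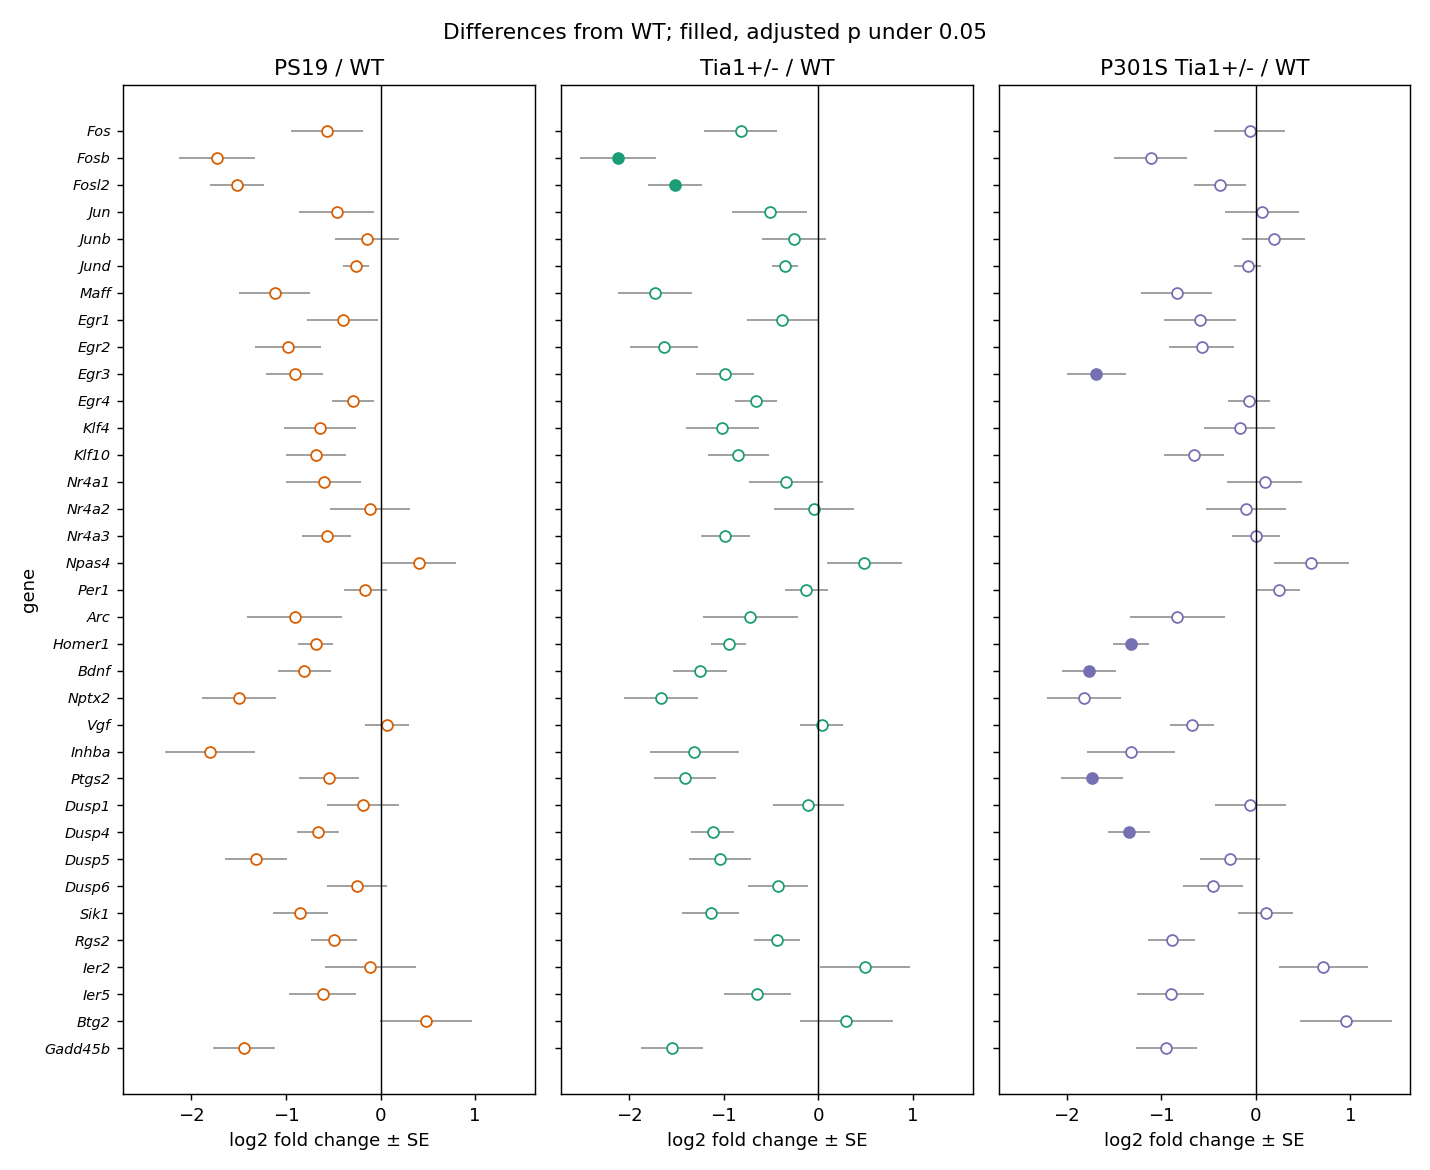
Log2 fold change against WT with its standard error (horizontal axis) for each of the 35 genes (vertical axis), in 3 panels for PS19, Tia1+/- and P301S Tia1+/-; filled points have an adjusted p under 0.05. Most points lie left of 0 in every panel, and the filled ones are Fosb and Fosl2 for Tia1+/- and Egr3, Homer1, Bdnf, Ptgs2 and Dusp4 for P301S Tia1+/-.

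P301S Tia1+/- was next set against Tia1+/-, the 2 groups whose titles and genotype entries are exchanged, so that the signs below hold for the titles. None of the 35 passed there, where 0% of all genes did. At an unadjusted p under 0.05, 9 were higher and 2 lower (15.6% of all genes), and DESeq2 called 3 (2.62% of all genes). The replicate numbers come from the titles, which state no pairing. Residuals of same-numbered libraries of these 2 groups were correlated at 0.123, 0.134 and 0.240, with no differently numbered libraries set beside them. A block for the number was therefore chosen from the data themselves, in a fit of these 6 libraries alone. It called Fosl2 (log2 fold change 1.14, adjusted p = 0.0420) and Sik1 (1.24, adjusted p = 0.0402, edgeR), against 0.964% of all genes. Without the block, the same 6 libraries gave 4 calls, Fosb, Fosl2, Sik1 and Gadd45b, against 2.22% of all genes. Every P301S Tia1+/- library was above every Tia1+/- library for 14 genes (14.9% of all genes) and below for 1, Vgf (11.1%). Compared to PS19, none of the 35 passed in P301S Tia1+/-, against 0.24% of all genes, with 4 higher and 6 lower at an unadjusted p under 0.05 (19.3% of all genes) and 7 called by DESeq2 (5.46%). A fit of those 6 libraries alone called 13, against 20.1% of all genes. Every P301S Tia1+/- library was above PS19 for 7 genes (20.2%) and below for 6 (18.2%), shares of the 35 close to those of all genes.

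Between PS19 and Tia1+/- the fewest of the 35 genes were under the unadjusted threshold. None of the 35 genes passed there by edgeR or by DESeq2, against 0.0712% of all genes in edgeR, 1 was under an unadjusted p of 0.05 (4.81%), and only Ptgs2 had ranges that did not meet, higher in PS19 (6.52% of all genes were higher in every library and 5.9% lower). The interaction, which is the log2 fold change of Tia1+/- with the tau transgene minus that without it, was positive for 33 of the 35 genes, with a median of 0.59 against 0.00 over all genes. These interaction values hold for the titles only. With the striatum covariate 11 were negative and the median was 0.38, with the bulb covariate 7 were negative and it was 1.13, and without PS19 replicate 2 it was 0.89. None passed, against 0.00648% of all genes. At an unadjusted p under 0.05, 14 were positive and 1, Vgf, negative, against 22.9% of all genes, and DESeq2 called 8 (8.08% of all genes). The smallest adjusted p values were 0.0579 for Fosl2 and 0.0618 for both Fosb and Sik1 (edgeR). For 6 genes, Fosb, Fosl2, Jun, Dusp5, Sik1 and Gadd45b, every P301S Tia1+/- library was above every library of PS19 and of Tia1+/- (17.1% against 10.4% of all genes), and for 1, Vgf, every one was below (2.86% against 6.3%).

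**Figure D3:**
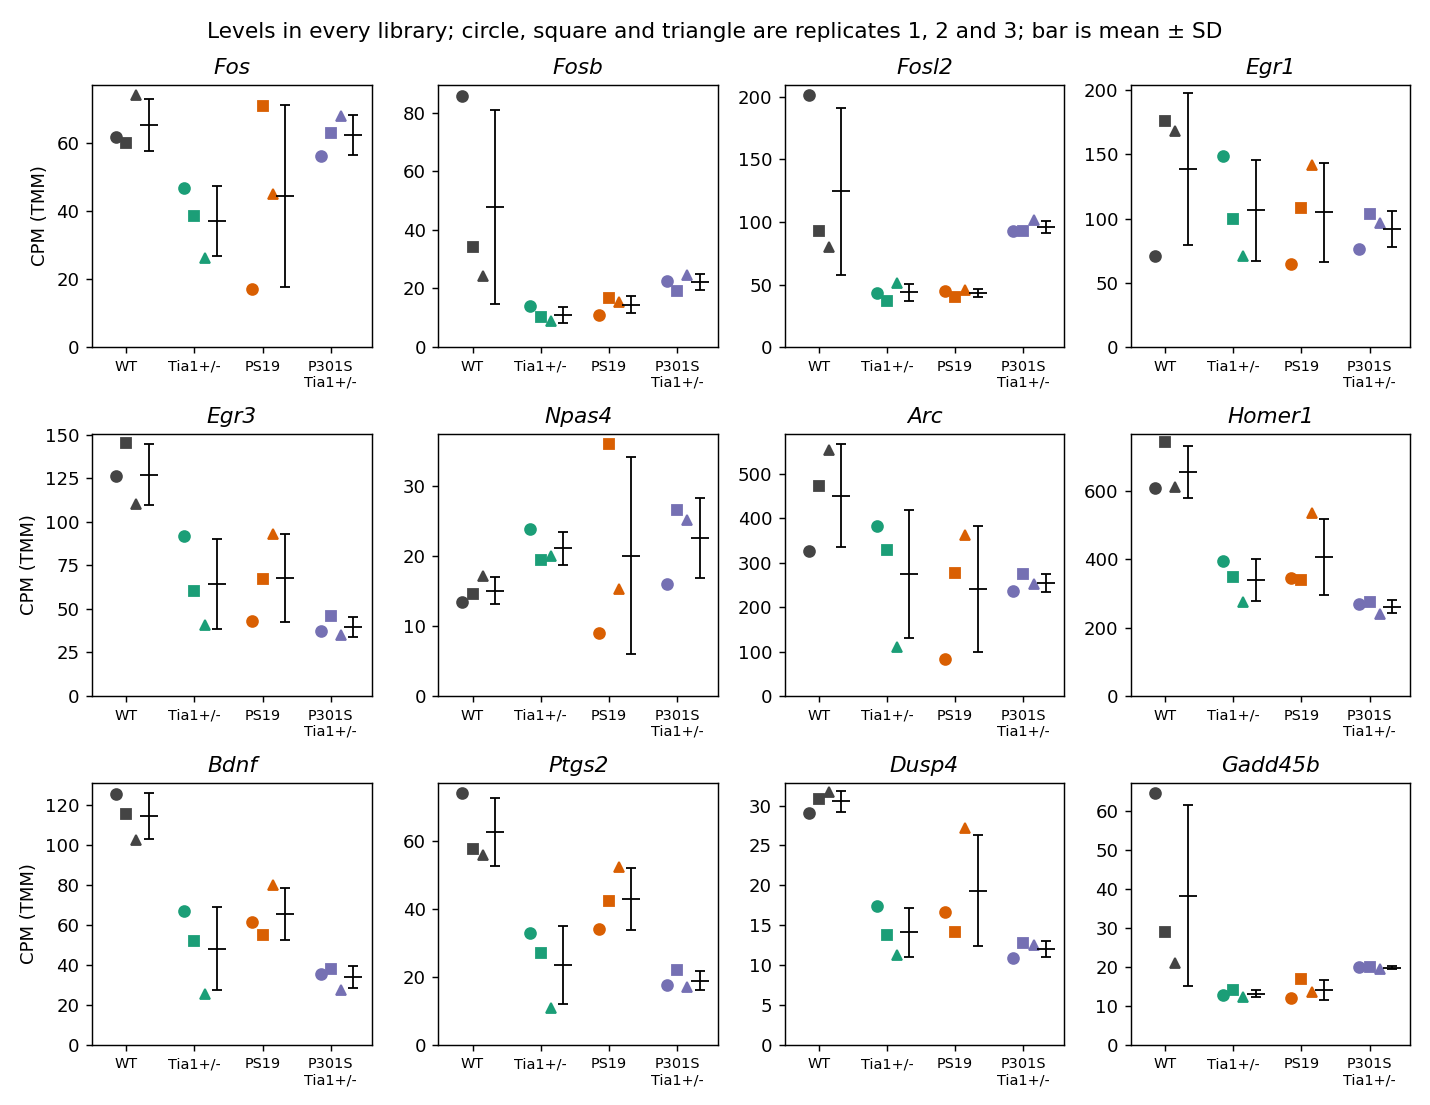
CPM (vertical axis, from 0) of 12 of the genes in every library by group (horizontal axis); circles, squares and triangles are replicates 1, 2 and 3, and the bar beside them is the group mean ± SD (n = 3). WT is the highest group for Fosb, Fosl2, Egr3, Homer1, Bdnf, Ptgs2 and Dusp4, and 1 WT library, replicate 1, is far above the rest for Fosb, Fosl2 and Gadd45b.

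Among the AP-1 factors, which pair as Fos and Jun proteins on DNA, Fosb and Fosl2 passed a test and Fos did not. Fos, the classical marker of a recently active neuron, was at 61.7, 59.9 and 74.1 CPM in WT, at 17.2, 70.6 and 45.0 CPM in PS19 mice, at 46.6, 38.3 and 26.1 CPM in Tia1+/- mice and at 56.1, 62.8 and 67.9 CPM with both changes. The Tia1+/- libraries were all below the other Tia1+/- group and WT, while PS19 spanned almost the whole range, and the test among the 4 groups gave an adjusted p of 0.377 (edgeR). Fosb, whose truncated product builds up in neurons that are activated again and again, was at 85.6, 34.0 and 24.1 CPM in WT, at 11.1, 16.8 and 15.5 CPM in PS19 mice, at 14.0, 10.3 and 8.82 CPM in Tia1+/- mice and at 22.6, 19.2 and 24.7 CPM with both changes. In Tia1+/- compared to WT its log2 fold change was −2.12 ± 0.40 (SE), with an adjusted p of 0.0446 (edgeR). WT replicate 1 stood far above the next library, and without it the log2 fold change was −1.38 and the adjusted p 0.0535.

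Fosl2, which encodes Fra-2, was at 201, 92.6 and 80.0 CPM in WT, at 45.1, 39.9 and 45.6 CPM in PS19 mice, at 43.5, 36.7 and 50.9 CPM in Tia1+/- mice and at 92.7, 93.2 and 101 CPM with both changes. PS19 and Tia1+/- overlapped each other below every library of the other 2 groups, whose ranges met. Its log2 fold change was −1.51 ± 0.29 in Tia1+/- compared to WT (adjusted p = 0.0446) and −1.52 ± 0.29 in PS19 compared to WT (adjusted p = 0.133, edgeR), and the difference between those 2 groups was −0.00 ± 0.28. It was, in P301S Tia1+/-, 1.14 ± 0.28 above PS19 and 1.13 ± 0.28 above Tia1+/-, with adjusted p values of 0.105 and 0.178 (edgeR). Both calls against WT depended on single libraries: of the 12 fits that left out 1 library, Fosb passed in 1, without WT replicate 3, and Fosl2 in 2, without WT replicate 1 or 3, with log2 fold changes from −2.43 to −1.38 and from −1.74 to −0.97. Without WT replicate 1 the log2 fold change of Fosl2 in PS19 was −0.98.

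None of the remaining AP-1 genes passed a test. Maff, a small Maf protein that binds related sites, had group means of 4.24 ± 2.09 CPM in WT, 1.96 ± 0.76 CPM in PS19 mice, 1.28 ± 0.27 CPM in Tia1+/- mice and 2.37 ± 0.13 CPM with both changes (SD, n = 3). Jun was at 76.3 CPM in WT replicate 1 and between 18.6 and 48.7 CPM in the other 11 libraries. Junb was at 39.4 CPM in PS19 replicate 1 and 46.3 CPM in Tia1+/- replicate 3, and between 77.2 and 114 CPM in the other 10. Jund was between 63.7 and 112 CPM throughout. Jun, Junb and Jund overlap a gene on the opposite strand in the annotation, and since the strand setting of the counting is not given in the sources used here, reads of the 2 strands may not have been told apart.

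The zinc finger factors of the EGR family are induced by the same kinases as Fos, and Egr3 was the 1 that passed a test. Egr3, which is itself induced by Egr1 and acts later, was at 126, 145 and 110.1 CPM in WT, at 42.7, 67.2 and 93.0 CPM in PS19 mice, at 91.8, 60.1 and 40.7 CPM in Tia1+/- mice and at 37.1, 46.0 and 35.1 CPM with both changes. All 9 libraries of the other groups were below WT, and P301S Tia1+/- overlapped the lower ends of PS19 and Tia1+/-. The log2 fold change in P301S Tia1+/- compared to WT was −1.69 ± 0.31, with an adjusted p of 0.0331 (edgeR). It was −0.91 ± 0.30 in PS19 and −0.98 ± 0.31 in Tia1+/-, with adjusted p values of 0.211 and 0.122 (edgeR).

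Egr2, an EGR factor known from Schwann cells that is also induced in neurons, was at 32.8, 22.5 and 28.1 CPM in WT, at 6.34, 17.7 and 18.5 CPM in PS19 mice, at 11.6, 9.19 and 6.18 CPM in Tia1+/- mice and at 19.5, 20.0 and 16.5 CPM with both changes. WT was above every other library, and Tia1+/- was below every P301S Tia1+/- library. The log2 fold change in Tia1+/- compared to WT was −1.63 ± 0.36 (adjusted p = 0.0596, edgeR). Egr1, the most used EGR marker of activity, was at 70.5, 176 and 168 CPM in WT, at 64.9, 108 and 141 CPM in PS19 mice, at 148, 99.5 and 71.1 CPM in Tia1+/- mice and at 76.0, 103 and 96.6 CPM with both changes. Its 4 groups overlapped, with an adjusted p of 0.639 among them (edgeR), and WT replicate 1, PS19 replicate 1 and Tia1+/- replicate 3 were its lowest libraries. Egr4 had group means from 10.4 ± 2.29 CPM in Tia1+/- to 16.4 ± 1.96 CPM in WT. Klf4, a Krüppel-like factor, was between 1.25 and 5.11 CPM, and Klf10, which TGF-beta also induces, had its highest mean in WT, 102 ± 4.08 CPM, and means of 57.1 to 65.1 CPM elsewhere (SD, n = 3).

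The nuclear receptors of the NR4A family and the PAS domain factors had the smallest median differences from WT of the 5 classes in PS19 and Tia1+/-, −0.16 and −0.12 on the log2 scale. Nr4a3, an orphan receptor without a known ligand, was at 13.6, 13.8 and 12.2 CPM in WT, at 6.08, 10.96 and 9.69 CPM in PS19 mice, at 8.62, 6.76 and 4.64 CPM in Tia1+/- mice and at 12.8, 10.7 and 16.2 CPM with both changes. Tia1+/- lay below both WT and P301S Tia1+/- in every library, with log2 fold changes of −0.98 ± 0.26 against WT and 0.99 ± 0.26 for P301S Tia1+/- against Tia1+/-. Their adjusted p values were 0.0907 and 0.183 (edgeR). Nr4a1 was at 33.9 CPM in PS19 replicate 1 and 50.2 CPM in Tia1+/- replicate 3, and between 86.4 and 151 CPM in the other 10. Nr4a2 went the other way in PS19, at 50.9 CPM in replicate 1 against 17.8 and 17.3 CPM in the others, and its group means were between 28.7 and 31.2 CPM.

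Npas4, which is induced by calcium entry and by little else, had its lowest group mean in WT, as did Btg2 and no other of the 35 genes. It was at 13.4, 14.5 and 17.1 CPM in WT, at 8.98, 35.9 and 15.2 CPM in PS19 mice, at 23.8, 19.4 and 20.0 CPM in Tia1+/- mice and at 16.0, 26.5 and 25.1 CPM with both changes. Only Tia1+/- lay wholly above WT, and none of its log2 fold changes against WT, 0.40 ± 0.40 in PS19, 0.49 ± 0.40 in Tia1+/- and 0.59 ± 0.40 with both changes, passed. Per1, a clock gene that light and cyclic AMP also induce, was at 44.2, 56.6 and 60.7 CPM in WT, at 33.5, 56.1 and 54.9 CPM in PS19 mice, at 58.6, 51.1 and 38.4 CPM in Tia1+/- mice and at 50.3, 70.5 and 70.3 CPM with both changes. Its groups overlapped, and the adjusted p among them was 0.510 (edgeR).

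The effectors at the synapse held 3 of the 5 calls in P301S Tia1+/-. Homer1, which ties metabotropic glutamate receptors to their partners and whose short activity-induced form uncouples them, was at 611, 743 and 612 CPM in WT, at 345, 339 and 536 CPM in PS19 mice, at 396, 349.7 and 274 CPM in Tia1+/- mice and at 270.3, 276 and 239.9 CPM with both changes. All 9 libraries of the other groups were below WT, and P301S Tia1+/- was below every PS19 library. Its log2 fold change against WT was −1.32 ± 0.19 in P301S Tia1+/- (adjusted p = 0.0145), −0.95 ± 0.19 in Tia1+/- (adjusted p = 0.0509) and −0.69 ± 0.19 in PS19 (adjusted p = 0.170, edgeR). The gene level counts do not separate the short form from the long ones. The test among the 4 groups gave Homer1 an adjusted p of 0.0440 (edgeR), and it passed in 4 of the 12 fits with 1 library left out, without WT replicate 1 or 3, Tia1+/- replicate 3 or PS19 replicate 3.

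Bdnf, the neurotrophin that active neurons secrete, was at 126, 116 and 103 CPM in WT, at 61.6, 55.0 and 80.1 CPM in PS19 mice, at 67.2, 51.9 and 25.6 CPM in Tia1+/- mice and at 35.6, 38.1 and 27.6 CPM with both changes. WT was above all other libraries, and P301S Tia1+/- was below PS19 throughout. The log2 fold change in P301S Tia1+/- compared to WT was −1.77 ± 0.29 (adjusted p = 0.0210, edgeR). Against PS19 it was −0.96 ± 0.29 (adjusted p = 0.135, edgeR). An antisense transcript overlaps Bdnf, which the counting may not have told apart. Ptgs2, which encodes the inducible cyclooxygenase COX-2 of excitatory neurons, was at 73.9, 57.7 and 55.8 CPM in WT, at 34.1, 42.3 and 52.2 CPM in PS19 mice, at 32.8, 27.1 and 10.8 CPM in Tia1+/- mice and at 17.7, 21.9 and 16.9 CPM with both changes. Here PS19 lay between WT and the 2 Tia1+/- groups, which overlapped each other. Its log2 fold change in P301S Tia1+/- was −1.73 ± 0.33 compared to WT (adjusted p = 0.0357) and −1.19 ± 0.33 compared to PS19 (adjusted p = 0.117, edgeR).

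Arc, which traffics AMPA receptors out of the synapse, was at 327, 472 and 554 CPM in WT, at 84.1, 276 and 361 CPM in PS19 mice, at 382, 329 and 111 CPM in Tia1+/- mice and at 235, 274 and 252 CPM with both changes. Every P301S Tia1+/- library was below WT, but the SE of 0.50 was large beside its log2 fold change of −0.83, and the adjusted p among the 4 groups was 0.478 (edgeR). Nptx2, a pentraxin that clusters AMPA receptors, was at 268 CPM in WT replicate 1, 105 and 90.6 CPM in the other WT libraries and between 33.7 and 73.2 CPM in the remaining 9. Its log2 fold change in P301S Tia1+/- compared to WT was −1.82 ± 0.39, with an adjusted p of 0.0517 (edgeR), and −1.15 without WT replicate 1. Inhba, the activin beta A subunit, was at 45.0 CPM in WT replicate 1 and between 6.04 and 15.1 CPM elsewhere. Vgf, a secreted neuropeptide precursor, kept to another pattern: its means were 80.8, 82.8 and 84.7 CPM in WT, Tia1+/- and PS19 and 50.7 ± 3.45 CPM in P301S Tia1+/-, with a log2 fold change of −0.74 ± 0.23 against PS19 (adjusted p = 0.146, edgeR).

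Of the 10 genes of signalling feedback, the MAP kinase phosphatase Dusp4 passed. It was at 29.1, 30.8 and 31.7 CPM in WT, at 16.6, 14.2 and 27.2 CPM in PS19 mice, at 17.4, 13.7 and 11.2 CPM in Tia1+/- mice and at 10.9, 12.7 and 12.5 CPM with both changes. The WT libraries lay close together above the others, and only PS19 replicate 3 came near them. Its log2 fold change in P301S Tia1+/- compared to WT was −1.34 ± 0.23 (adjusted p = 0.0240), and it was −1.11 ± 0.23 in Tia1+/- (adjusted p = 0.0533) and −0.66 ± 0.22 in PS19 (adjusted p = 0.213, edgeR). Gadd45b, which takes part in DNA demethylation in active neurons, was at 64.5, 28.8 and 21.1 CPM in WT, at 11.9, 16.9 and 13.4 CPM in PS19 mice, at 12.8, 14.1 and 12.4 CPM in Tia1+/- mice and at 20.0, 19.9 and 19.4 CPM with both changes. Its P301S Tia1+/- libraries lay between WT and the other groups without meeting either, and the log2 fold change in Tia1+/- compared to WT was −1.54 ± 0.33 (adjusted p = 0.0586, edgeR), or −0.91 without WT replicate 1.

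The kinase Sik1, which is induced by cyclic AMP and holds CREB coactivators out of the nucleus, had means of 33.3 ± 7.26 CPM in WT, 18.6 ± 7.62 CPM in PS19 mice, 15.1 ± 3.42 CPM in Tia1+/- mice and 35.7 ± 6.92 CPM with both changes (SD, n = 3). Dusp5, a nuclear ERK phosphatase, had means of 16.7 CPM in WT and 13.8 CPM in P301S Tia1+/-, against 8.13 CPM in Tia1+/- and 6.67 CPM in PS19. Rgs2, which shortens G protein signalling, was highest in WT at 122 ± 29.1 CPM and lowest in P301S Tia1+/- at 65.8 ± 9.79 CPM, and among the Tia1+/- libraries it was 131 CPM in replicate 3 against 68.1 and 70.3 CPM in the others. Ier5 had its lowest value, 43.3 CPM, in Tia1+/- replicate 3, and Dusp6 its lowest, 58.9 CPM, in the same library. Dusp1, the phosphatase that glucocorticoids also induce, had means from 35.7 to 40.5 CPM in the 4 groups, and the adjusted p among them was 0.976 (edgeR). Ier2 and Btg2, which slows the cell cycle, had their highest means in P301S Tia1+/-, at 9.83 ± 1.63 and 43.3 ± 8.93 CPM against 5.998 ± 0.84 and 22.4 ± 7.997 CPM in WT (SD, n = 3), and neither passed.

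Of the 5 calls in P301S Tia1+/- compared to WT, Homer1, Bdnf and Dusp4 each passed in 8 of the 12 fits that left out 1 library and Egr3 and Ptgs2 in 6. All 5 were lost without WT replicate 2 or any 1 of the P301S Tia1+/- libraries, and Egr3 and Ptgs2 also without Tia1+/- replicate 2 or PS19 replicate 2. Their log2 fold changes stayed between −1.38 and −1.22 for Homer1, −1.86 and −1.63 for Bdnf, −1.38 and −1.27 for Dusp4, −1.81 and −1.58 for Egr3 and −1.85 and −1.58 for Ptgs2.

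**Figure D4:**
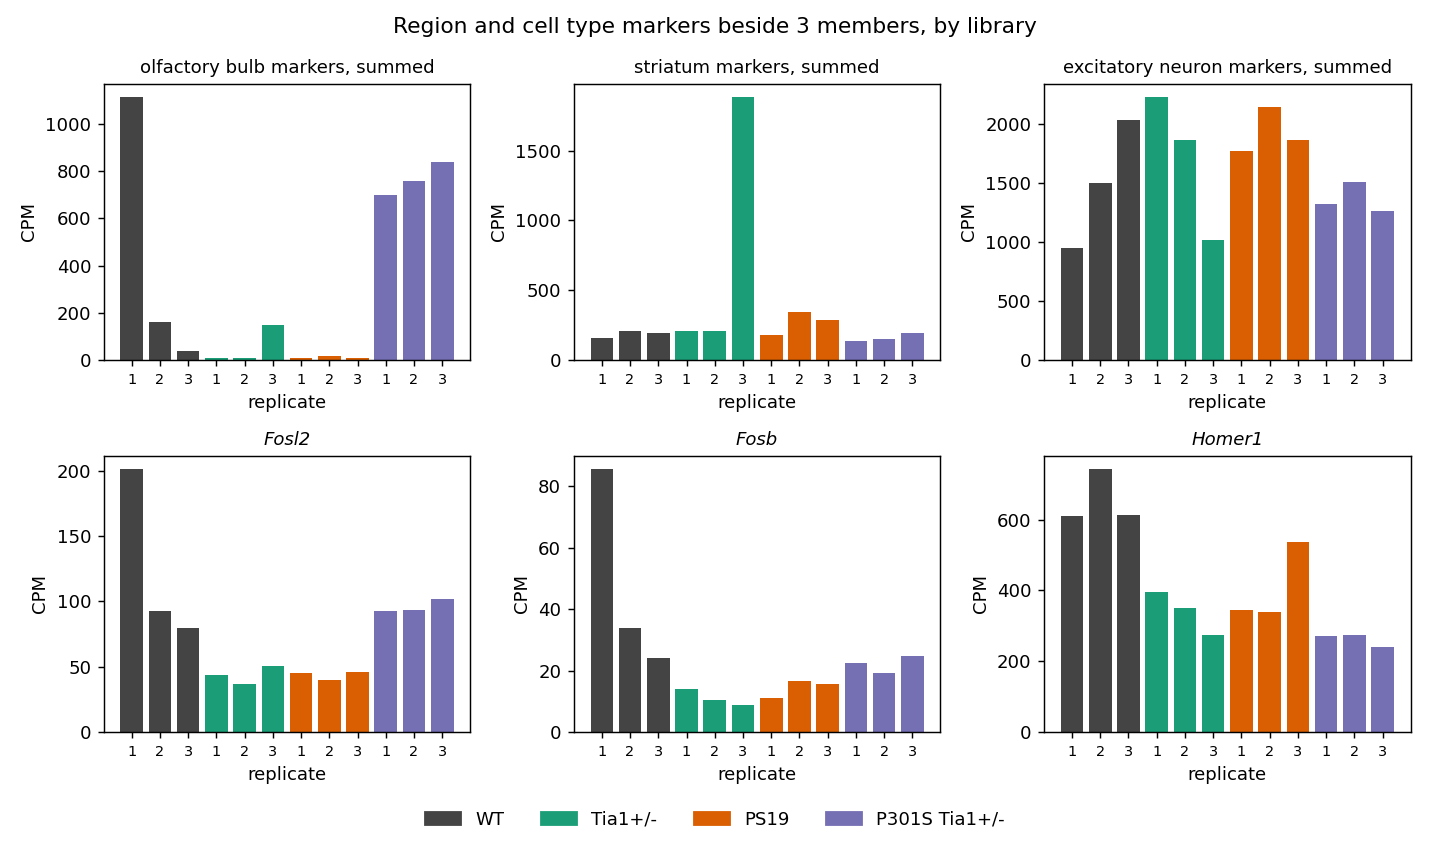
CPM (vertical axes, from 0) by library (horizontal axes, 3 replicates a group, coloured by group) of the summed markers of olfactory bulb, striatum and excitatory neurons and of Fosl2, Fosb and Homer1. Bulb markers are high in WT replicate 1 and the 3 P301S Tia1+/- libraries, which are also the 4 highest in Fosl2, while Homer1 is low in P301S Tia1+/-.

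Markers of neighbouring tissue moved with part of these genes in some libraries and not in others. WT replicate 1, the library richest in bulb markers, was also the highest of all 12 in Fosb, Fosl2, Jun, Jund, Maff, Egr2, Klf10, Bdnf, Nptx2, Inhba, Ptgs2, Dusp5, Rgs2 and Gadd45b, and the P301S Tia1+/- libraries, which came next in bulb markers, were above PS19 and Tia1+/- in Fosb, Fosl2, Jun, Sik1, Dusp5 and Gadd45b. WT replicate 2 and Tia1+/- replicate 3 had similar bulb sums, 161 and 149 CPM. Fosl2 was at 92.6 and 50.9 CPM in these 2 libraries, and Fosb at 34.0 and 8.82 CPM. WT replicate 3, with a bulb sum of 38.8 CPM, had Fosl2 at 80.0 CPM. With the mean log2 level of the bulb markers as a covariate, the log2 fold change of Fosl2 in P301S Tia1+/- was −0.21 against PS19 and 0.02 against Tia1+/-, and its interaction was 0.53 (adjusted p = 0.712, 0.970 and 0.515, edgeR). In the same fit Homer1, Bdnf, Dusp4, Egr3 and Ptgs2 passed in P301S Tia1+/- compared to WT, with log2 fold changes of −1.19, −1.60, −1.19, −1.55 and −1.60. With the covariate a larger share of all genes passed in this comparison than without it, as given in the closing section. The 4 libraries with high bulb markers fell in 2 groups only, so group and bulb content overlap in this fit, and their shares were not tested apart.

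Without both WT replicate 1 and Tia1+/- replicate 3, a choice made after the data were seen, more of the 35 genes passed in every comparison but that of PS19 with Tia1+/-, where none did. In Tia1+/- compared to WT 8 of the 35 passed, all of them lower: Fosb, Fosl2, Homer1, Bdnf, Inhba, Ptgs2, Rgs2 and Gadd45b, against 1.72% of all genes. In PS19 compared to WT 3 passed, Fosl2, Inhba and Gadd45b (0.476%), and in P301S Tia1+/- compared to WT 13 did (25.8%). With all 12 libraries 1.31% of all genes passed in that last comparison. Once WT replicate 1 was left out, high bulb markers were found in the P301S Tia1+/- libraries alone. Bulb content and this group cannot be told apart in that fit. The sum of the 5 excitatory neuron markers was lowest in WT replicate 1 and Tia1+/- replicate 3, at 948 and 1013 CPM against 1257 to 2226 CPM in the other 10. Slc17a7 was lowest there as well, at 513 and 298 CPM, while Camk2a, at 668 CPM in Tia1+/- replicate 3, was above WT replicate 2 and all P301S Tia1+/- libraries. PS19 replicate 1, the library in which Fos, Arc, Nr4a1 and Ier2 were lowest, had a sum of 1769.6 CPM, below the 1858 and 2143 CPM of the other PS19 libraries and within the range of WT. Inhibitory neuron markers summed to 1242 CPM or more in the P301S Tia1+/- libraries, WT replicate 1 and Tia1+/- replicate 3 and to 870.4 CPM or less in the other 7. This sum was carried by Gad1 and Gad2, and Pvalb went the other way, at 8.40 to 26.9 CPM in those 5 libraries against 32.96 to 98.3 CPM in the other 7. Sst was at 12.6 CPM in WT replicate 1 and 52.4 to 72.8 CPM in P301S Tia1+/-, against 99.9 to 126 CPM elsewhere.

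Genes of the signalling that leads to these genes were counted as well. Of 36 genes of the upstream pathway, from NMDA receptor subunits to CREB, SRF, MEF2 and their kinases, 1 fell in Tia1+/- compared to WT, against 0.712% of all genes called. It was Creb1, with a log2 fold change of −0.51 ± 0.10 and an adjusted p of 0.0479 (edgeR). Creb1 was at 178, 149.8 and 134 CPM in WT, at 120.5 to 128 CPM in PS19 mice, at 107 to 108 CPM in Tia1+/- mice and at 122 to 140.2 CPM with both changes. Rps6ka3, which encodes the CREB kinase RSK2, was the 1 that fell in P301S Tia1+/- compared to WT, against 1.31% of all genes called. Its log2 fold change was −0.78 ± 0.13 (adjusted p = 0.0205, edgeR). None of the 36 passed in PS19 compared to WT, where the median log2 fold change of the list was 0.06.

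Other genes known to be induced by activity leaned the same way as the 35. This list, like the 35, was chosen with earlier results of these data known, so it is not separate support for them. Of 25 listed, 24 were tested. Compared to WT, 18 were lower in PS19 (51% of all genes), 20 in Tia1+/- (49.3%) and 21 in P301S Tia1+/- (46.6%), with medians of −0.46, −0.46 and −0.38. At an unadjusted p under 0.05, 10, 11 and 7 were lower and none higher, against 16.3%, 19.1% and 18% of all genes in either direction. Spry2, an inhibitor of receptor tyrosine kinase signalling, was the 1 that passed, in P301S Tia1+/-, against 1.31% of all genes. Its log2 fold change was −0.78 ± 0.12, with an adjusted p of 0.0193 (edgeR). Atf3, a stress-induced factor, was at 27.8, 7.27 and 1.75 CPM in WT, at 1.32 to 3.44 CPM in PS19 mice, at 0.55 to 1.80 CPM in Tia1+/- mice and at 13.4 to 19.2 CPM with both changes. Its 4 highest libraries were thus the 4 with the highest bulb markers.

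Genes that respond to other stimuli were counted beside them. Of 5 heat shock genes, all 5 were lower than WT in each of the 3 groups. In Tia1+/- 3 passed (Hspa1a, Hspa1b and Dnajb1), against 0.712% of all genes. In P301S Tia1+/- 3 passed (Hspa1a, Hspa1b and Hsph1), against 1.31%. Hspa1a, the inducible HSP70, had a log2 fold change of −1.24 ± 0.20 in Tia1+/- and −1.26 ± 0.20 in P301S Tia1+/- (adjusted p = 0.0375 and 0.0193, edgeR), and its near-identical copy Hspa1b may share reads with it. Of 12 genes that glucocorticoids induce, 1 fell, Cdkn1a in Tia1+/- compared to WT (−1.50 ± 0.28, adjusted p = 0.0446, edgeR), against 0.712% of all genes called. The list had medians of 0.25 in PS19, −0.27 in Tia1+/- and −0.25 in P301S Tia1+/- compared to WT. Of 14 clock genes, Dbp rose by 0.74 ± 0.14 in P301S Tia1+/- compared to WT (adjusted p = 0.0363) while Arntl and Clock fell, by 0.66 ± 0.13 and 0.38 ± 0.08 on the log2 scale (adjusted p = 0.0385 and 0.0491, edgeR). In that comparison 1.31% of all genes passed. Arntl and Clock were named after their values were seen. The hour of dissection is not given in the sources used here, and its part in these values was not tested.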

How the data were processed

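Cortex RNA of 12 mice was sequenced as 12 libraries, 3 a group, from 9-month-old animals. By the submitters' processing notes, the authors aligned reads to mm10 with TopHat2 2.0.6, and they deposited raw counts per gene symbol from featureCounts; gene annotation and strand setting are not given in the sources used here. Whether a label marks separate litters is not stated, so p values measure the spread between these mice.

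Here, counts were filtered with filterByExpr, scaled with TMM and tested with edgeR 4.0.16 in R 4.3.3, all 12 libraries in 1 fit with a mean for each group. SE is the log2 fold change divided by the square root of F. The method was tested on simulated data. DESeq2 1.42.0 and the other settings of the closing section were alternatives. Members and gene lists were chosen with earlier results of these data known. Values in every library are given for members with an adjusted p under 0.05 in any test, for the 2 with the smallest p among the 4 groups in each role class, and for Fos, Arc, Egr1 and Npas4, and from other lists at most 4 genes by that p are named. Gfap, Arntl and Clock were named after their values were seen.

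Residuals of same-numbered libraries were correlated: 7 of 18 pairs were above 0.1 (range −0.538 to 0.346), so numbers were not used as pairs, but all 3 pairs of Tia1+/- with P301S Tia1+/- were above it (0.123, 0.134 and 0.240). The fit of those 6 libraries with the block, and the joint omission of 2 libraries, were added after seeing the data.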

Additional observations from a re-analysis of the deposited data

How the results depend on the processing

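The number of the 35 genes called was recomputed under each alternative. In the fit with the replicate number as a block (replicate block) no gene was called in any comparison, against 2 in Tia1+/- and 5 in P301S Tia1+/- compared to WT and 1 among the 4 groups without it. Over the 4 groups these numbers did not pair the libraries, which share only a number. In PS19 compared to WT (0 called), DESeq2's Wald test called 7, the bulb covariate 1 and the omission of WT replicate 1 and Tia1+/- replicate 3 together 3. In Tia1+/- compared to WT (2), DESeq2 called 14, a filter of 10 counts in every library 4, the fit of the groups compared alone 0, the bulb covariate 8, the striatum covariate 0 and the joint omission 8. In P301S Tia1+/- compared to PS19 (0), these were 7 by DESeq2, 13 in the groups alone, 2 and 6 with the bulb and striatum covariates and 14 without both libraries. In P301S Tia1+/- compared to Tia1+/- (0), they were 3, 4, 2 with the bulb covariate and 13, and 2 in the 6 libraries with the block. In P301S Tia1+/- compared to WT (5), the bulb covariate gave 11 and the joint omission 13. The interaction (0) had 8 by DESeq2, 2 and 6 with the covariates and 9 without both libraries, and the test among the 4 groups (1) had 15, 12, 7 and 16. With single libraries left out the counts ran from 0 to 0 in PS19 compared to WT and to Tia1+/-, 0 to 6 in Tia1+/- compared to WT, 0 to 4 in P301S Tia1+/- compared to PS19 and to Tia1+/-, 0 to 8 compared to WT, 0 to 6 for the interaction and 0 to 10 among the 4 groups. The shares of all genes are not given here for these fits or for the filter of 10 counts. Their counts therefore have no background beside them.

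With the bulb covariate the shares of all genes called were 5.23% in PS19, 8.39% in Tia1+/- and 9.06% in P301S Tia1+/- compared to WT. They were 6.88% and 7.36% in P301S Tia1+/- compared to PS19 and Tia1+/-, 7.69% for the interaction and 12.6% among the 4 groups. A count of 1 or 2 of 35 is no more than that background. With the striatum covariate the shares were 4.84% in P301S Tia1+/- compared to PS19, 7.63% for the interaction and 2.75% among the 4 groups. The fits of the groups compared alone called 2.22% in P301S Tia1+/- compared to Tia1+/-, and the joint omission 22.9%, 23.4% and 25.8% in P301S Tia1+/- compared to PS19, Tia1+/- and WT, 13.5% for the interaction and 29.3% among the 4 groups.

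Only the bulb covariate turned a direction: Inhba in PS19 compared to WT (0.014), Fosl2 (−0.21), Vgf (0.25) and Sik1 (−0.017) in P301S Tia1+/- compared to PS19, Fosb (−0.27), Maff (−0.12) and Vgf (0.15) compared to Tia1+/-, and Nptx2 (−0.17), Vgf (0.72), Inhba (−1.85) and Gadd45b (−0.19) in the interaction. The cause was not tested. With 3 mice a group and a spread of 0.48 log2 units within groups, small differences were not detectable. DESeq2's size factors and the absence of a filter changed no count by more than 1.5 times.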
